A study of Mus musculus with 28 samples.

Results

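The genes described here are 10 genes of the mammalian circadian clock, defined by their symbols: Per1, Per2, Per3, Cry1, Cry2, Nr1d1, Nr1d2, Bhlhe40, Bhlhe41 and Dbp. All 10 symbols were found, among 55487 genes in the table, and all 10 passed the filter on low counts in every comparison. The 28 libraries came from 14 lysates of mouse hypothalamus. Every mouse, controls included, carried the LepRb-eGFP-L10a reporter, which puts a green fluorescent tag on ribosomes of cells that make the long leptin receptor isoform, LepRb. RNA pulled down with antibodies against the tag is called the bead fraction, and the RNA left in the liquid is called the depleted fraction, so each lysate gave 1 library of each. Mice were males and females of 10 to 13 weeks on a cycle of 12 h light and 12 h dark, and their food was taken away at lights-on. They then received metreleptin, a form of leptin used as a drug, at 5 mg per kg into the abdomen, or vehicle, and tissue was collected 3 or 10 h later, both within the light phase. The groups, per fraction, were wild type (WT) at 3 h with vehicle (4 libraries) or leptin (3), WT at 10 h with vehicle (1) or leptin (3), and leptin-deficient ob/ob mice at 10 h with vehicle (2) or leptin (1). The labels and files do not say whether a lysate held 1 mouse or a pool, so p-values measure the spread between lysates.

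The clock is a loop of transcription and repression that runs in nearly every cell. The activators CLOCK and BMAL1 (gene symbol Arntl), or NPAS2 in place of CLOCK, bind E-boxes and switch on the period genes (Per), the cryptochromes (Cry), Nr1d1 and Nr1d2, Bhlhe40 and Bhlhe41, and Dbp. PER and CRY proteins then block the activators, REV-ERB alpha and beta (Nr1d1 and Nr1d2) repress Arntl, and DEC1 and DEC2 (Bhlhe40 and Bhlhe41) compete for E-boxes, while DBP drives output genes through D-boxes. In the hypothalamus the suprachiasmatic nucleus holds the light-entrained pacemaker, and feeding and fasting set clocks in other nuclei.

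Library totals ran from 21277982 to 42267040 counts in beads and from 19649105 to 41804049 in depleted RNA. Lepr, the leptin receptor gene, was higher in beads than in depleted RNA of the same lysate in 14 of 14 lysates, by 2.28 on the log2 scale (SE 0.0948). All 9 listed genes of LepRb neurons were higher in beads, and all 36 listed astrocyte, oligodendrocyte and microglia genes were lower, though none of those 3 lists was at 0 in beads. Pituitary transcripts summed to 1325 CPM (counts scaled to a common library size) in beads and 3035 in depleted RNA of the WT 3 h leptin lysate f2. In the WT 3 h vehicle lysate m3 they summed to 70.4 and 287, and in the ob/ob leptin lysate to 26.9 and 147, against 0.728 to 7.16 in the libraries of the other 11 lysates. The WT 3 h, WT 10 h and ob/ob libraries were sequenced in 3 separate runs, per the deposited table, so time and genotype cannot be told apart from sequencing run.

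Promoter sequence was matched in RefSeq (build GRCm38.p6) for 8 of the 10 genes, in 9 windows from 250 bases before to 50 bases after the transcription start. The windows were searched on both strands for the E-box CACGTG, its variant CACGTT, the D-boxes TTATGTAA and TTACGTAA, the core site AGGTCA of ROR and REV-ERB, the cAMP response element TGACGTCA and the STAT site TTCNNNGAA. These motifs have no overlapping matches in the windows described. Of 32851 RefSeq promoters, 7.15% hold the E-box, 4.68% the variant, 1.06% a D-box, 16.3% the core site, 1.79% the cAMP response element and 8.3% the STAT site. The 250 bases before the start are printed for the 5 genes on which the results below turn and which hold an E-box, a variant or a D-box, with those motifs in capitals (AACGTG is the variant read from the other strand).
Per1, upstream of the first start, chr11:69098699-69098948, plus strand: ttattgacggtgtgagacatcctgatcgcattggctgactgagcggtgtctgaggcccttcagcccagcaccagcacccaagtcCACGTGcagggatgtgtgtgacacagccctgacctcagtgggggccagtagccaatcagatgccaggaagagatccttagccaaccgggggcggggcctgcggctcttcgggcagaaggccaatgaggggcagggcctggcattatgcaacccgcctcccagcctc
Per3, chr4:151044666-151044915, minus strand: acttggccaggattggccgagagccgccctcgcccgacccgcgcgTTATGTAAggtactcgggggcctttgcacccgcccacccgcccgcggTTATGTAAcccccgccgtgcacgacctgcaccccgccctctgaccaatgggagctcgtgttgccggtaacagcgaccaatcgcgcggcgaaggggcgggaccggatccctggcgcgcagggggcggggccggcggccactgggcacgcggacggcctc
Cry1, chr10:85185055-85185304, minus strand: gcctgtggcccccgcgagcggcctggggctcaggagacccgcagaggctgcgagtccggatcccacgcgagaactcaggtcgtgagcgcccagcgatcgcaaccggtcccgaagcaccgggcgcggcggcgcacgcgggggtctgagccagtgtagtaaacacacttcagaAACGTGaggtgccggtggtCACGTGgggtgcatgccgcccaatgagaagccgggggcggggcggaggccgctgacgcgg
Nr1d1, chr11:98775378-98775627, minus strand: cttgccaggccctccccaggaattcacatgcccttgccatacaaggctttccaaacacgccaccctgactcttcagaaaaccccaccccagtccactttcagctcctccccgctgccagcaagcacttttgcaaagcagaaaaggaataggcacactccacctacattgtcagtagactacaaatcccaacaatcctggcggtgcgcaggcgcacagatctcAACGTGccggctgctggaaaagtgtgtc
Bhlhe41, chr6:145865421-145865670, minus strand: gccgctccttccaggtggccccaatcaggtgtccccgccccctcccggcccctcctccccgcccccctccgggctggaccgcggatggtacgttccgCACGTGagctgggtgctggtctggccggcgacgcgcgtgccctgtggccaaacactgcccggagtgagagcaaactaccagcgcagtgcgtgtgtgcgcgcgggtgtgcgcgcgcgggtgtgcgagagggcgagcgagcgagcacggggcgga

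Counted from the start, the Per1 E-box began at -166, with a core site at -137. Per3 had no E-box match and a pair of D-boxes at -205 and -158. Cry1 held both the variant, at -79, and the E-box, at -60. Nr1d1 held the variant at -28 and Bhlhe41 the E-box at -153. The Cry2 window held the variant at -166, the Nr1d2 window a core site at -77, and the Dbp window a STAT site at -99. The window at the second Per1 start held a STAT site at -210. No window held the cAMP response element. A match describes letters, not binding.

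Per length of merged exons, the 10 genes fell into 3 tiers of level. In beads the upper tier, by median CPM per kilobase over 14 libraries, was Bhlhe40 at 26.7, Nr1d1 at 26.4, Cry2 at 24.2, Nr1d2 at 24.01 and Dbp at 22.0. Per1 (14.7), Bhlhe41 (14.2) and Cry1 (13.5) followed, and Per2 (4.19) and Per3 (3.01) were lowest. Neighbours within a tier overlapped in range. Dbp, from 15.6 to 39.7 CPM per kilobase, also overlapped Cry1, from 10.4 to 20.04, whereas the highest Per2 library (6.24) lay under the lowest Per1 library (9.78). In depleted RNA the order within the upper tier was Nr1d1 (32.7), Nr1d2 (28.7), Cry2 (24.2), Dbp (24.1) and Bhlhe40 (23.4). There the lowest upper-tier value, 20.05 for Dbp, stood above the highest Per1 value, 16.5, and Per3 (4.51) and Per2 (4.402) were again the lowest.

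**Figure D1:**
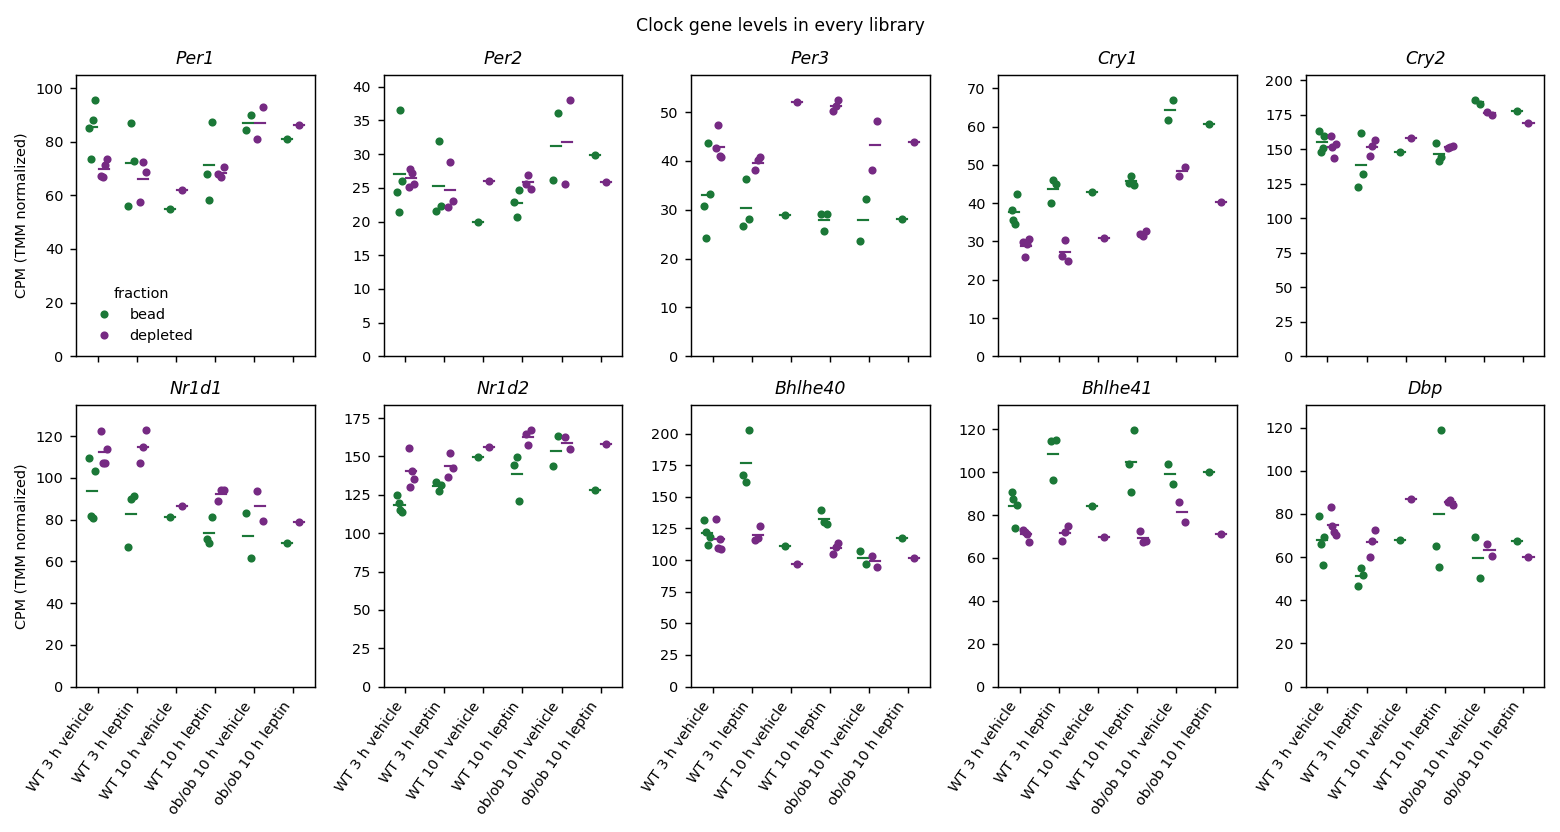
Level of each clock gene in each of the 28 libraries, as CPM on a linear axis that starts at 0, by group along the x axis. Points are libraries, green for beads and purple for depleted RNA, and short lines are group means; Cry1 is higher in green and Per3 higher in purple in nearly every group.

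The first comparison set clock transcripts on the tagged ribosomes of LepRb cells against those in the RNA left in the lysate. Cry1, Bhlhe41, Bhlhe40 and Per1 were higher in beads, and Per3, Nr1d1, Dbp and Nr1d2 were lower, by edgeR's quasi-likelihood test with lysate as a block at an adjusted p (Benjamini-Hochberg over all genes) under 0.05. These 4 higher and 4 lower calls stand against a background in which 38.6% of the 19682 tested genes were higher and 39.3% lower, so the number of calls among the clock genes is close to the background. The median log2 difference of the 10 genes was -0.02, and that of all tested genes was -0.01. In bulk RNA, fewer cells of a type and less RNA per cell cannot be told apart. A difference between cells and a difference in ribosome binding cannot be told apart either, since only beads select RNA on ribosomes.

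Among the repressors, the cryptochrome Cry1 had the largest rise. Its CPM in beads ran from 34.6 to 42.5 in WT 3 h vehicle, 40.1 to 45.9 in WT 3 h leptin and 44.8 to 47.0 in WT 10 h leptin. The WT 10 h vehicle library had 42.9, the ob/ob vehicle libraries 61.7 and 66.9, and the ob/ob leptin library 60.6. In depleted RNA the corresponding values were 25.9 to 30.7, 24.9 to 30.3, 31.5 to 32.8, 30.8, 47.1 and 49.5, and 40.2. The bead library was thus the higher of the pair in 14 of 14 lysates, with a fitted log2 difference of 0.51 (SE 0.0424, edgeR adjusted p = 9.64e-10), a 1.43-fold higher share. The related Cry2 did not pass, at -0.01 (SE 0.0330, 95% interval -0.08 to 0.06).

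The period genes differed among themselves. Per3 was lower in beads in 13 of 14 lysates, from -0.996 to 0.09 with a median of -0.62, and its fitted log2 difference was -0.58 (SE 0.0717, edgeR adjusted p = 4.83e-07). The 4 WT 10 h lysates, from -0.996 to -0.78, sat at the low end of the WT 3 h lysates, which reached from -0.97 (vehicle m3) to 0.09 (vehicle f1). Per1 was only slightly higher, at 0.11 (SE 0.0486, edgeR adjusted p = 0.0481), in 9 of 14 lysates. That call was lost in 14 of 21 alternatives, and scaling by library totals turned it to -0.07. Per2 did not pass, at -0.04 (SE 0.0566).

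The REV-ERB genes were both lower in beads. Nr1d1 was lower in 14 of 14 lysates, from -0.68 to -0.09 (fitted -0.30, SE 0.0425, edgeR adjusted p = 1.99e-06), and Nr1d2 in 13 of 14 (fitted -0.17, SE 0.0390, edgeR adjusted p = 0.000488). The DEC genes were both higher. Bhlhe41 was higher in 14 of 14 lysates, from 0.06 to 0.82 (fitted 0.43, SE 0.0534, edgeR adjusted p = 3.27e-07), and Bhlhe40 in 12 of 14 (fitted 0.24, SE 0.0530, edgeR adjusted p = 0.000353). The output gene Dbp was lower in 11 of 14 lysates (fitted -0.18, SE 0.0727, edgeR adjusted p = 0.0320), a call lost in 10 of 21 alternatives. Leaving out any of 9 single lysates ended the Per1 call, namely WT 3 h vehicle m1, m3, f1 and f3, WT 3 h leptin f2 and f4, WT 10 h leptin 3 and both ob/ob vehicle lysates. Leaving out any of 7 ended the Dbp call, namely WT 3 h leptin m24, f2 and f4, WT 3 h vehicle f1, WT 10 h leptin 1 and 2 and WT 10 h vehicle.

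Scaling by library totals in place of trimmed means (TMM) moved the median of all genes from -0.01 to -0.19. The split among the 10 genes became 2 higher (Cry1 at 0.33 and Bhlhe41 at 0.25) and 6 lower, with Per2 (-0.21) and Cry2 (-0.19) called lower and Bhlhe40 (0.06) not called. Cry1, Bhlhe41, Per3, Nr1d1 and Nr1d2 kept their call and direction under all 21 alternatives.

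**Figure D2:**
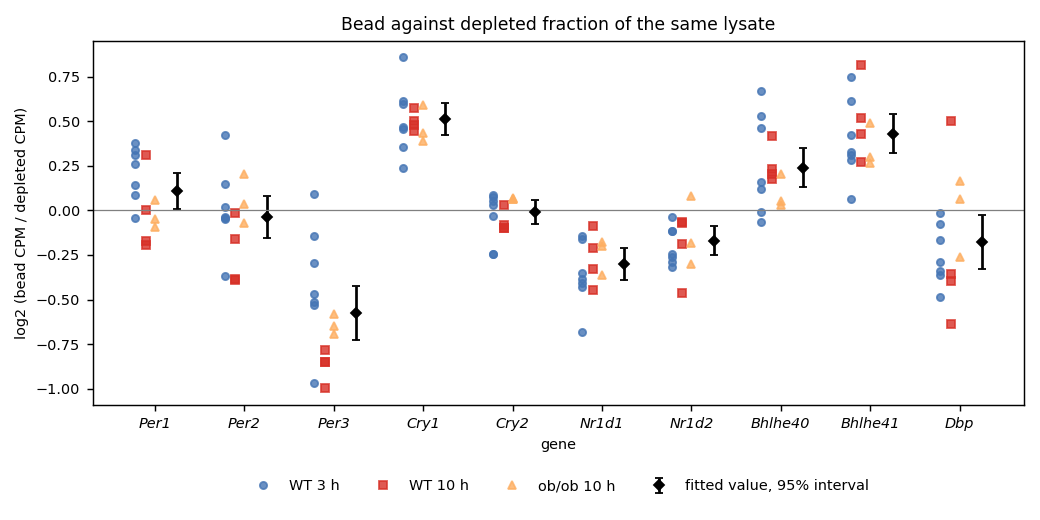
Log2 ratio of bead to depleted CPM for each gene (x axis) in each of the 14 lysates, marked by genotype and time, with the fitted difference and its 95% interval in black. All 14 lysates lie above 0 for Cry1 and Bhlhe41 and below 0 for Nr1d1, while Cry2 stays near 0.

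Among 22 other clock genes, 3 of 4 activators were lower in beads: Clock (-0.48), Npas2 (-0.48) and Arntl2 (-0.23). Arntl did not pass (-0.02, SE 0.0413). Rora and Rorb, receptors that activate Arntl at the sites where REV-ERB represses it, were lower, at -1.29 and -0.98. Of the PAR bZIP factors related to Dbp, Hlf was lower (-0.88) and Tef did not pass (-0.04), and Nfil3, which opposes them at D-boxes, was higher (0.60). Of 12 kinases, ubiquitin ligases and cofactors of clock proteins, 6 were higher and 4 lower. The 6 were Nono (0.65), Csnk1d (0.37), Btrc (0.34), Fbxl21 (0.33), Wdr5 (0.22) and Fbxw11 (0.15). Among the 4 were Usp2 (-0.89), Timeless (-0.25) and Sirt1 (-0.24). Of all 19682 tested genes 38.6% were higher and 39.3% lower in beads, so these counts show nothing particular to the lists.

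The second comparison asked how the genes differed between 3 and 10 h after injection in WT mice. In depleted RNA, Per3 and Dbp were higher at 10 h and Nr1d1 and Bhlhe40 lower, each by less than 1.5-fold. Hours since injection, length of fast, time of day and sequencing run changed together between the times, so they cannot be told apart. The fit covered the 14 depleted libraries with a mean for each of the 6 groups, and the difference averaged the vehicle and leptin arms, so the lone WT 10 h vehicle library carried as much weight as its 3 leptin counterparts. Of 19115 tested genes, 3.17% were higher and 4.01% lower at 10 h, against 2 higher and 2 lower of the 10 clock genes. Their median log2 difference was 0.03, and that of all genes -0.01.

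Dbp, the output activator, had 71.5, 70.2, 83.1 and 74.4 CPM in WT 3 h vehicle and 67.5, 72.8 and 60.1 in WT 3 h leptin. At 10 h it had 87.1 with vehicle and 85.7, 86.5 and 84.0 with leptin. All 10 h libraries lay above all 3 h libraries, and the 10 h values were close together. The fitted log2 difference was 0.29 (SE 0.0610, 1.22-fold, edgeR adjusted p = 0.0136). That call held in the leptin arm alone. In the vehicle arm alone, with 1 library at 10 h, the difference was 0.22.

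Per3 had 41.0, 40.7, 42.6 and 47.3 CPM in WT 3 h vehicle and 40.1, 40.8 and 38.1 in WT 3 h leptin, then 52.1 with vehicle and 50.1, 51.3 and 52.4 with leptin at 10 h. Again no 10 h library overlapped a 3 h library, and Per3 rose by 0.32 (SE 0.0678, 1.252-fold, edgeR adjusted p = 0.0124). In the leptin arm alone it did not pass (0.37, edgeR adjusted p = 0.0546). The vehicle arm, with 1 library at 10 h, gave 0.28. Per1 (-0.06, SE 0.0710) and Per2 (0.02, SE 0.113) did not pass. Cry1 did not overlap between times but did not pass (0.17, SE 0.0675, edgeR adjusted p = 0.146), and passed when lysate f2 was left out (0.23, edgeR adjusted p = 0.0486). Cry2 did not pass (0.03, SE 0.0431).

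The REV-ERB genes went apart. Nr1d1 had 107, 114, 122 and 107 CPM in WT 3 h vehicle, 115, 123 and 107 in WT 3 h leptin, 86.5 in WT 10 h vehicle and 89.1, 94.0 and 94.3 in WT 10 h leptin. Every 10 h library lay under every 3 h library, and Nr1d1 fell by 0.35 (SE 0.0607, edgeR adjusted p = 0.00616). In the leptin arm alone it did not pass (-0.31, edgeR adjusted p = 0.0586). The vehicle arm, with 1 library at 10 h, gave -0.38. Nr1d2 was higher at 10 h in every library but did not pass (0.17, SE 0.0521, edgeR adjusted p = 0.0645). It passed in 9 of 20 alternatives, among them library totals (0.20, edgeR adjusted p = 0.0289) and leaving out WT 3 h vehicle m1 (0.20, 0.0280) or leptin f2 (0.20, 0.0394). Library totals thus gave 3 higher (Per3, Dbp and Nr1d2) and 1 lower (Nr1d1). In all, 5 of the 10 genes did not overlap between times, against 7.58% of all tested genes.

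Of the DEC genes, Bhlhe40 fell by 0.20 (SE 0.0571, edgeR adjusted p = 0.0434) and Bhlhe41 did not pass (-0.04, SE 0.0502). The Bhlhe40 call was lost in 14 of 20 alternatives, over which the adjusted p ran from 0.0127 to 0.331. It was lost on leaving out each of 9 of the 10 lysates that could be left out, and held without WT 3 h vehicle m3. The WT 10 h vehicle lysate could not be left out, since the average over arms needs it.

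The kit did not mark strand, and some of these genes share exonic bases with a gene on the opposite strand. Dbp shares 18.0% of its exonic length with Sphk2, which fell at 10 h (-0.25, SE 0.0551) where Dbp rose. Nr1d1 shares 8.55% with Thra, a far more abundant gene at a mean of 1007 CPM, which did not pass (-0.11, SE 0.0502). Bhlhe41 shares 19.0% with Gm43909, Cry2 4.67% with D930015M05Rik and Bhlhe40 2.51% with 0610040F04Rik, all at under 2 CPM. In the fraction comparison, where Dbp and Nr1d1 were lower in beads, Sphk2 (0.40, SE 0.0556) and Thra (0.50, SE 0.0410) were higher there. D930015M05Rik was lower in beads (-1.71, SE 0.172), and Gm43909 (-0.04) and 0610040F04Rik (-0.11) did not pass. The part of such reads in these results was not tested.

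In beads none of the 10 genes passed for time, by edgeR. No gene of 18212 did (0% called, with 3224 at an unadjusted p under 0.05), while DESeq2 called 463 genes and limma voom 0, in both cases with none of the 10. The direction was the same as in depleted RNA for Dbp (0.33, SE 0.194), Nr1d1 (-0.18, SE 0.134), Bhlhe40 (-0.26, SE 0.0913) and Nr1d2 (0.22, SE 0.0839). For Per3 it was not (-0.14, SE 0.161, 95% interval -0.49 to 0.20). The other 5 genes, in log2 differences, were Per1 (-0.31), Per2 (-0.29), Cry1 (0.13), Cry2 (0.01) and Bhlhe41 (-0.02). None of the 10 genes was free of overlap between times, against 5.21% of all tested genes. Dbp spread more in beads than in depleted RNA. At 10 h the bead libraries had 67.9 with vehicle and 65.1, 55.6 and 119 CPM with leptin, against 56.5, 69.4, 78.8 and 66.3 with vehicle and 55.2, 51.9 and 46.7 with leptin at 3 h. The 119 came from WT 10 h leptin 3.

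In beads, markers of endothelial and mural cells were lower at 10 h in both arms. Glial markers, taken as a mean, were lower at 10 h with leptin. The lone 10 h vehicle library lay within the 3 h vehicle range for them. The mean log2 CPM of the astrocyte, oligodendrocyte and microglia lists (the glial index) was 3.95 to 5.14 in WT 3 h vehicle and 3.78 to 4.54 in WT 3 h leptin, but 3.33 to 3.60 in WT 10 h leptin and 4.32 in the WT 10 h vehicle library. The sum of the endothelial and mural markers was 57.0 to 209 and 57.6 to 82.6 CPM at 3 h, and 22.3 to 38.0 at 10 h. With the glial index as a covariate none of the 10 genes passed in beads either. In depleted RNA the glial index was 5.28 to 5.90 over all libraries, and the calls there rose to 5 with the covariate.

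The difference in time effect between fractions was tested directly with lysate as a block, and none of the 10 genes passed by edgeR (0% of 19682 genes, with 2861 at an unadjusted p under 0.05; DESeq2 called 109 genes). Per3 came nearest, with a bead effect lower than the depleted effect by 0.45 (value -0.45, SE 0.161, edgeR adjusted p = 0.271). Its interval, -0.79 to -0.11, does not exclude a difference as large as the depleted effect. Those of Per2 (-0.59 to 0.01) and Per1 (-0.48 to -0.02) reach well beyond the size of their depleted effects, which were small. The Per3 and Per1 intervals, which are not adjusted for the number of genes, hold negative values only. For Dbp the difference was 0.01, with an SE (0.190) too large to exclude one as large as its depleted effect. The others had smaller values than Per3: Nr1d1 (0.18), Nr1d2 (0.05), Bhlhe40 (-0.05), Bhlhe41 (0.02), Cry1 (-0.03) and Cry2 (-0.01). A call in depleted RNA alone therefore does not show that beads differed.

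Among the other clock genes in depleted RNA, Tef rose by 0.16 (SE 0.0416, edgeR adjusted p = 0.0342) and the other 21 did not pass. Nfil3 (-0.26, SE 0.0783, edgeR adjusted p = 0.0547), Hlf (-0.11), Clock (0.05), Arntl (-0.02), Ciart (0.01) and Npas2 (0.00) were among those. In beads the same genes had -0.18, -0.03, -0.04, 0.10, 0.05 and -0.23 in that order, with Tef at 0.14 and none passing.

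**Figure D3:**
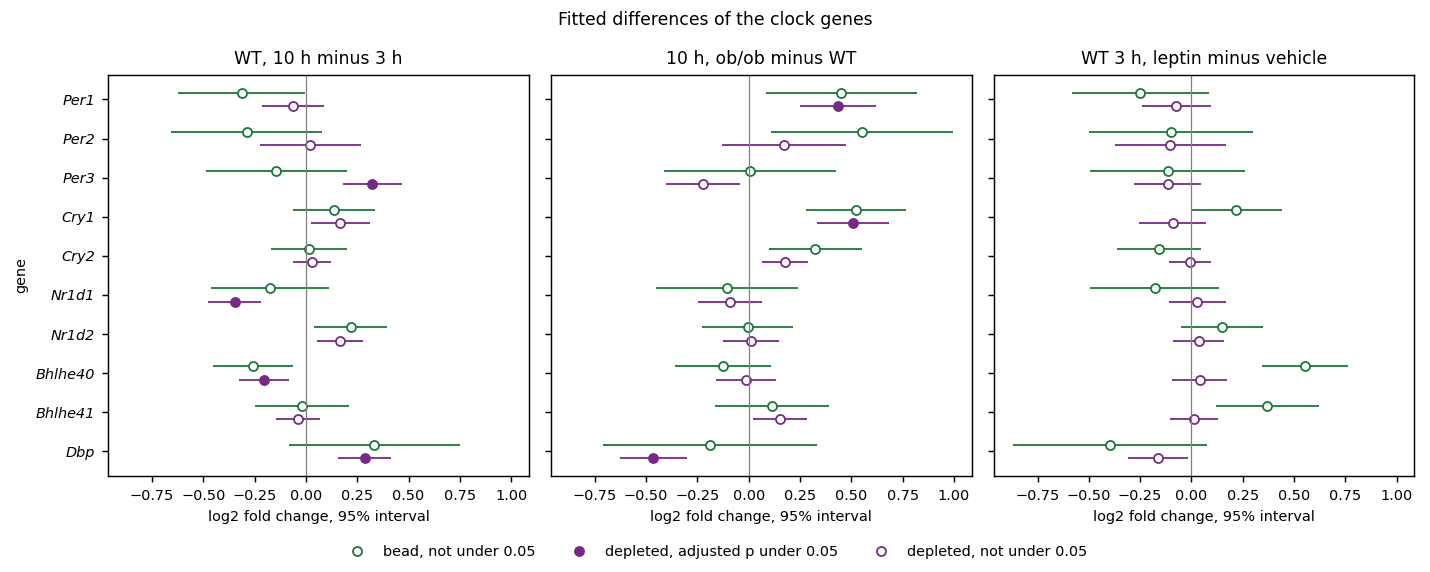
Fitted log2 differences of the 10 genes with 95% intervals for time (left), genotype (middle) and leptin at 3 h (right), green for beads and purple for depleted RNA; filled points have an adjusted p under 0.05. Filled points occur in depleted RNA only, and the bead intervals are wider.

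DBP and BMAL1 transcripts peak at opposite phases of the day in most tissues. The log2 ratio of Dbp to Arntl counts, each plus 1, was therefore taken in each library. In depleted RNA it was 1.26 ± 0.148 (SD, n = 7) at 3 h, from 1.04 to 1.42, and 1.54 ± 0.0202 (SD, n = 4) at 10 h, from 1.52 to 1.57, without overlap. The difference of 0.28 had a two-sided exact permutation p of 0.00606 over 330 splits of the WT libraries. Arntl itself hardly differed between times (-0.02, SE 0.0662), so the ratio mostly restates the Dbp difference in the same libraries. The ob/ob depleted libraries, at 0.98 to 1.17, lay under all 4 WT 10 h libraries. In beads the ratio went from 1.07 ± 0.313 (SD, n = 7) to 1.27 ± 0.508 (SD, n = 4), and the difference of 0.20 did not pass (exact permutation p = 0.442). The 10 h group held 3 leptin libraries of 4 and the 3 h group 3 of 7; over leptin lysates alone the depleted difference was 0.41, where 3 against 3 cannot give an exact p under 0.1. With Clock in place of Arntl it was 0.19 (exact permutation p = 0.106).

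**Figure D4:**
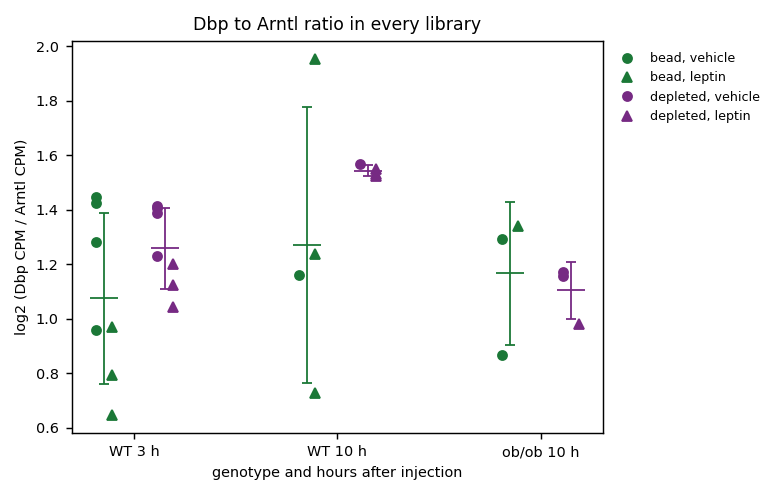
Log2 ratio of Dbp to Arntl in each library by genotype and time, with vehicle as circles and leptin as triangles; bars give the mean and SD. The 4 WT 10 h depleted libraries cluster at 1.52 to 1.57, above every WT 3 h and ob/ob depleted library, and the bead libraries spread widely.

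The third comparison set leptin-deficient ob/ob mice against WT mice at 10 h, averaged over the arms. In depleted RNA Cry1 and Per1 were higher in ob/ob and Dbp was lower. The background was 2.72% of 19115 genes higher and 2.85% lower, against 2 and 1 of the 10 clock genes, whose median log2 difference was 0.08 (all genes 0.00). The time and genotype comparisons share the WT 10 h libraries, so their values are not independent of each other.

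Cry1 in depleted RNA had 47.1 and 49.5 CPM in ob/ob vehicle and 40.2 in ob/ob leptin, against 30.8 to 32.8 in the 4 WT 10 h libraries. It was 1.42-fold higher (0.51, SE 0.0828, edgeR adjusted p = 0.00536) and above every WT 3 h library too. Per1 had 81.1 and 93.0 in ob/ob vehicle and 86.4 in ob/ob leptin, against 62.1 with vehicle and 67.8, 66.7 and 70.4 with leptin in WT. It was 1.35-fold higher (0.43, SE 0.0864, edgeR adjusted p = 0.0130), again above every WT 3 h library. Dbp had 66.3, 60.4 and 60.0 in ob/ob, all under the WT 10 h values of 84.0 to 87.1 with both vehicle libraries within the WT 3 h range of 60.1 to 83.1 and the leptin library just under it. It was lower by 0.46 (value -0.46, SE 0.0766, edgeR adjusted p = 0.00560).

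Of the others in depleted RNA, Cry2 was above all WT 10 h libraries in all 3 ob/ob libraries without passing (0.18, SE 0.0526, edgeR adjusted p = 0.0644). Per3 was below them without passing (-0.22, SE 0.0850, edgeR adjusted p = 0.135), and passed when ob/ob vehicle 2 was left out (-0.33, edgeR adjusted p = 0.0156). Per2 (0.17), Bhlhe41 (0.15), Nr1d1 (-0.09), Bhlhe40 (-0.01) and Nr1d2 (0.01) did not pass. Thra, which shares exonic bases with Nr1d1, was higher in ob/ob (0.24, SE 0.0607), and Sphk2 did not pass (0.12). In all, 5 of 10 genes did not overlap between ob/ob and WT, against 22.3% of all tested genes. Both arms taken singly have 1 library on one side: the vehicle arm, which leaves out the ob/ob leptin lysate with its pituitary transcripts, kept 1 of the 3 calls (Cry1), and the leptin arm kept none. A list of 9 genes of the suprachiasmatic nucleus summed to 396 and 479 CPM in ob/ob vehicle and 396 in ob/ob leptin depleted RNA. In WT it summed to 267 to 309 at 10 h, without overlap, and to 293 to 390 at 3 h. The mean log2 CPM of the list did overlap, at 3.34 to 3.48 in ob/ob and 3.26 to 3.46 in WT at 10 h. Of the 9 genes 1 passed, Avp, the vasopressin gene (1.17, SE 0.185, edgeR adjusted p = 0.0107), none was lower, and the list median was 0.01. The part of the suprachiasmatic and pituitary transcripts in the clock gene values was not tested.

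In beads 0.472% of 18212 genes passed for genotype (86 genes) and none of the 10 clock genes did. Cry1 had 61.7, 66.9 and 60.6 CPM in ob/ob and 42.9, 45.4, 47.0 and 44.8 in WT 10 h, without overlap. Its difference, 0.52 (SE 0.115), was close to that in depleted RNA, and its edgeR adjusted p was 0.0707. It passed with DESeq2 (adjusted p = 0.00367) and with the glial index as a covariate (edgeR adjusted p = 0.0228), and did not in the other alternatives run. Cry2 (0.33, SE 0.105) and Per2 (0.55, SE 0.207) also lay above all WT 10 h bead libraries without passing, and Per1 had 0.45 (SE 0.172). The other 6 were Dbp (-0.19), Bhlhe40 (-0.12), Nr1d1 (-0.11), Nr1d2 (-0.01), Per3 (0.01) and Bhlhe41 (0.11). For these 3 non-overlapping genes of 10 the background is 15.5% of tested genes. The glial index in ob/ob beads was 4.09 and 4.65 with vehicle and 3.56 with leptin, and the endothelial and mural markers, with 12 of 12 positive, had a median difference of 0.99. Their part in these values was not tested beyond the covariate.

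Per1 is also a target of the glucocorticoid receptor. Of a list of 9 glucocorticoid-responsive genes that includes Per1, 5 were higher in ob/ob depleted RNA and none lower, with a list median of 0.43, against 2.72% of all tested genes higher and 2.85% lower. Besides Per1 these were Cdkn1a (1.63), Fkbp5 (0.99), Zbtb16 (0.76) and Tsc22d3 (0.28). In beads Cdkn1a (1.58) and Fkbp5 (0.89) passed. The part of glucocorticoid signalling in the Per1 value was not tested. Of the other clock genes, Btrc was lower in ob/ob depleted RNA (-0.20, SE 0.0558, edgeR adjusted p = 0.0469), and none passed in beads.

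The fourth comparison was leptin against vehicle. At 3 h in WT beads, 0.022% of 18212 genes passed (4 genes, all higher, the leptin-responsive Socs3, Atf3, Arid5a and Etv6), and none of the 10 clock genes did. The DEC genes came nearest. Bhlhe40 had 112, 118, 132 and 123 CPM with vehicle and 162, 202 and 167 with leptin, so that the lowest leptin library exceeded the highest vehicle library. Its log2 difference was 0.55 (SE 0.0986, 95% interval 0.34 to 0.77), 1.47-fold, with an unadjusted p of 5.25e-05 in edgeR, 9th smallest of all genes, and an adjusted p of 0.106.

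Bhlhe40 passed with DESeq2 (0.56, adjusted p = 0.00125), without the filter on low counts (edgeR adjusted p = 0.00494) and without the 2 lysates with the most pituitary transcripts, m3 and f2 (0.64, edgeR adjusted p = 0.0464). It did not pass when single lysates were left out. Bhlhe41 had 74.2, 84.6, 90.7 and 87.7 CPM with vehicle and 96.2, 115 and 114 with leptin, also without overlap (0.37, SE 0.118, edgeR adjusted p = 0.656). In depleted RNA of the same lysates the values were 0.04 (SE 0.0621) for Bhlhe40 and 0.01 (SE 0.0552) for Bhlhe41. The difference between fractions in the leptin effect was not tested.

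Dbp went the other way in beads without passing, with 56.5, 69.4, 78.8 and 66.3 CPM with vehicle and 55.2, 51.9 and 46.7 with leptin (-0.40, SE 0.221, edgeR adjusted p = 0.701). Nr1d2 had 115, 114, 125 and 120 with vehicle and 127, 131 and 133 with leptin (0.15, SE 0.0936). With Bhlhe40 and Bhlhe41 these made 4 of 10 genes without overlap, against 7.96% of all tested genes. Cry1 (0.22, SE 0.104), Per1 (-0.25, SE 0.157), Cry2 (-0.16), Nr1d1 (-0.18), Per3 (-0.11) and Per2 (-0.10) did not pass. Astrocyte and microglia markers were lower with leptin in these bead libraries in 12 of 12 genes each, with medians of -0.51 and -0.56, none passing. With the glial index as a covariate none of the 10 genes passed.

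In depleted RNA at 3 h no clock gene and no gene at all passed (0% of 19115, with 1813 at an unadjusted p under 0.05 in edgeR; DESeq2 called 43 genes and limma voom 0), and none of the 10 was free of overlap, against 7.74% of tested genes. The members ran from -0.16 (Dbp, SE 0.0688) to 0.04 (Bhlhe40), with Per3 (-0.12), Per2 (-0.10), Cry1 (-0.09), Per1 (-0.07), Cry2 (-0.01), Bhlhe41 (0.01), Nr1d1 (0.03) and Nr1d2 (0.04) between them. At 10 h, over WT and ob/ob together, none of the 10 passed in beads (0.022% of genes) or depleted RNA (0.00523%). The 10 h bead values were 0.23 (SE 0.110) for Bhlhe40, 0.17 (SE 0.131) for Bhlhe41 and 0.21 (SE 0.242) for Dbp, then Per1 (0.14), Per2 (0.07), Cry1 (0.01), Per3 (-0.01), Cry2 (-0.03), Nr1d1 (-0.10) and Nr1d2 (-0.18). In depleted RNA they were Bhlhe40 (0.11), Per1 (0.06), Nr1d2 (0.03), Per3 (0.00), Nr1d1 (-0.02), Dbp (-0.05), Cry2 (-0.06), Cry1 (-0.10), Bhlhe41 (-0.11) and Per2 (-0.16). In WT alone, where vehicle is 1 library, the bead values were 0.25 for Bhlhe40 and 0.31 for Bhlhe41. The leptin effect at 10 h minus that at 3 h in WT beads passed for none of the 10 (0% of 18212 genes, with 547 at an unadjusted p under 0.05 in edgeR; DESeq2 called 1). For Bhlhe40 it was -0.30 (SE 0.178, 95% interval -0.68 to 0.08), and the others had Dbp (0.63), Per1 (0.62), Per2 (0.29), Cry2 (0.15), Per3 (0.07), Nr1d1 (0.04), Bhlhe41 (-0.06), Cry1 (-0.13) and Nr1d2 (-0.26).

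Across the 28 libraries, with log2 CPM centred within each fraction, the genes varied together in part. Pearson's r was 0.72 for Per1 with Per2, 0.68 for Cry1 with Cry2, 0.60 for Cry1 with Nr1d2, -0.58 for Cry1 with Nr1d1 and -0.59 for Nr1d1 with Nr1d2. Those values are descriptions, since the libraries share groups, runs and lysates. Among 14937 genes with a mean of at least 1 CPM, the 5 with the pattern most like Dbp included Cnih2 (r = 0.80), Sox1 (0.79), Mzf1 (0.78) and C1qtnf12 (0.76). The 5 most opposed to Dbp were Pik3r1 (-0.83), Larp4b (-0.82), Map3k20 (-0.82), Ppm1k (-0.79) and Bbx (-0.76). Those most like Per2 were Klf15 (0.77), Rprd2 (0.75), Slc38a2 (0.75), Fam160b1 (0.75) and Mvp (0.75). None of the 15 is on the clock lists.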

How the data were processed

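Hypothalamic RNA from eGFP-tagged ribosomes and from the depleted lysate was sequenced as unstranded, poly(A)-selected single-end reads of 50 cycles, per the labels' protocols. STAR 2.7.6a and build GRCm38.p6 were used, per the submitters' processing notes. The authors deposited raw counts of reads per gene; no source used here names the tool that counted them. Genes that reached 10 counts in 3 or more of the libraries fitted were tested with edgeR 4.0.16 (TMM, quasi-likelihood F test, robust, R 4.3.3), one fit of 6 groups per fraction (14 libraries, 8 residual degrees of freedom), with p-values adjusted by Benjamini-Hochberg over all genes and a threshold of 0.05. Fractions, and time by fraction, were compared over 28 libraries with lysate as a block. Bead and depleted libraries of a lysate pair by origin; in 10 of 10 lysates of groups of 3 or more, their deviations from the group means correlated (r from 0.143 to 0.571). Intervals are 95% intervals from the fit. CPM values were computed from the counts with TMM factors, and lengths from GENCODE M21. Alternatives used DESeq2 1.42.0, limma 3.58.1 voom, other scaling and filters, a glial covariate, single arms and leaving out each lysate. The model was tested on simulated data, with 67 genes changed 1.25-fold, 67 changed 1.5-fold and 66 changed 2-fold. For time in beads it recovered 0% of genes changed 1.25-fold and 33.3% of those changed 1.5-fold. The shares were 47.8% and 72.7% for time in depleted RNA, and 37.3% and 75% for fraction. Unchanged genes called numbered 5 for time in beads and 8 in each of the others. The data had 15333 genes called for fraction, far more than were changed in the simulation, so these shares need not hold for the data. No replicate pair agreed within sampling noise (chi-square per degree of freedom 6.08 to 82.5 over 26 pairs).

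All 10 genes were tested and are named in every comparison, and the clock, cell type and response lists were made by role; the genes and lists were chosen with earlier results of these data known. Of the other clock genes, Arntl, Clock, Npas2, Nfil3, Tef, Hlf and Ciart are named for time, and those that pass elsewhere. The genes most like Dbp and Per2 are the 5 with the highest r, and for Dbp also the 5 with the lowest. A few genes that these rules select are not reported here.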

Additional observations from a re-analysis of the deposited data

How the results depend on the processing

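Among 1830 recomputed values of single clock genes, 1 called value turned its direction (Per1, beads against depleted RNA, -0.0693 by library totals) and 113 values that were not called changed sign. The number of clock genes called for fraction was 8. It was 6 with no replicate block, 6 without the low-count filter, 6 without the lysates m3 and f2, and 7 with DESeq2; time by fraction stayed at 0 with no replicate block. For time in depleted RNA, 4 were called, against 1 in the leptin arm and 0 in the vehicle arm. For time by fraction, 1 was called without the low-count filter (Per3). For leptin at 3 h in beads, 1 was called with DESeq2, 1 without the filter and 1 without the lysates m3 and f2 (Bhlhe40 each time). For genotype in beads, 1 was called with DESeq2 and 1 with the glial covariate (Cry1 each time), and in depleted RNA 0 in the leptin arm and 1 in the vehicle arm. The arms hold fewer libraries; the cause of the other changes was not tested.

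The Dbp to Arntl difference in depleted RNA was 0.19 with Clock and 0.41 in leptin lysates alone. Leaving out single lysates gave 0.25 to 0.31 in depleted RNA and -0.0319 to 0.376 in beads, where the sign turned without WT 10 h leptin 3 (-0.0319). It gave 6 to 8 calls for fraction, 3 to 5 for time and 3 to 4 for genotype in depleted RNA, and 0 to 0 in each other comparison. Contrasts at 10 h could not be fitted without the WT 10 h vehicle lysate, nor genotype and leptin at 10 h without the ob/ob leptin lysate.

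Over all genes, calls depended on the tool: without the filter 1351 were called for time in beads, 191 for leptin at 3 h in beads and 1199 for time by fraction, against 0, 4 and 0. Without m3 and f2 they were 124, 34 and 113, and with DESeq2 463, 20 and 109. For genotype in beads DESeq2 called 225 and the glial covariate 214, against 86. For leptin at 10 h DESeq2 called 106 in beads and 96 in depleted RNA, against 4 and 1. In depleted RNA 2195 were called for time and 1901 for genotype without the filter, against 1372 and 1064. For leptin at 3 h in depleted RNA it was 43 with DESeq2 and 640 without the filter, against 0. Leaving out WT 10 h leptin 2 or 3 left 577 or 704 genes for time and 533 or 569 for genotype in depleted RNA, and leaving out WT 3 h vehicle m3 gave 231 for time in beads and 117 for time by fraction. The arms with 1 library, and the bead libraries with their larger spread, limit what can be detected.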

Other observations

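One other clock gene stood out in a comparison that the lists were not used for, and was chosen after its values were seen: in depleted RNA of WT mice, the leptin effect on Npas2 at 10 h minus that at 3 h was -0.70 (SE 0.133, unadjusted p = 9.48e-05 and adjusted p = 0.201 in edgeR), which does not pass. Among the 10 genes, the same difference in beads was 0.62 (SE 0.288) for Per1 and 0.63 (SE 0.403) for Dbp, with adjusted p = 0.993 in edgeR for both. The 10 h leptin effect in WT rests on 1 vehicle library per fraction.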
